A study of Rattus norvegicus with 6 samples.

Results

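The transcripts described here encode the nuclear-encoded subunits of the oxidative phosphorylation system, the 4 complexes of the respiratory chain and the ATP synthase. They were measured in 6 libraries of Rat-1, a long-established fibroblast line from rat. The members are the rows of the deposited gene table whose symbols begin with Nduf followed by a, b, c, s or v and a digit, with Uqcr or Atp5, or with Cox and a digit between 4 and 8, together with Sdha, Sdhb, Sdhc and Sdhd. This rule found 80 of 17143 genes: 33 in complex I, 4 in complex II, 8 in complex III, 18 in complex IV and 17 in complex V. No pair of members had identical values in all 6 libraries, so none was counted more than once.

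The cells were seeded at 25000 per well and left for 4 h on extracellular matrix (ECM). The matrix had been remodelled by matrix metalloproteinase 13 (MMP13, 2 libraries), remodelled by matrix metalloproteinase 1 (MMP1, 2 libraries) or left native (2 libraries). Both enzymes are secreted collagenases. All groups shared the same line, serum-containing medium and 4 h time point, and only cells adhering to the matrix were lysed. The question of the design is what fibroblasts transcribe on degraded as opposed to intact matrix. The samples are duplicates, and the labels do not say whether they came from separate cultures, so p-values cover only the spread among the 6 libraries, and that spread may be technical.

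Complex I takes electrons from NADH and complex II from succinate. Ubiquinone carries them to complex III and cytochrome c carries them on to complex IV, which reduces oxygen to water. Complexes I, III and IV pump protons across the inner mitochondrial membrane, and complex V lets the protons flow back to make ATP. Most subunits are encoded in the nucleus, and their genes are known to be under factors such as NRF1, the ETS family factor NRF2 (GABP), YY1 and the oestrogen-related receptors.

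Promoter sequence of the RefSeq build GRCr8 was at hand for 68 of the 80 members. The stretches below run from 120 bases before to 30 bases after the annotated start, 5′ to 3′ on the gene's strand. They are shown because each belongs, within its complex, to the listed gene with the smallest unadjusted p in any comparison, so each goes with a set of values given further on. Capitals mark matches on either strand to an NRF1-type palindrome (GCGC, any 2 bases and GCGC again), CCGGAAG (ETS type), AAGATGGCG (YY1 type) or TCAAGGTCA (oestrogen-related receptor type).
Ndufb10, complex I, chr10:14255937-14256086, minus strand: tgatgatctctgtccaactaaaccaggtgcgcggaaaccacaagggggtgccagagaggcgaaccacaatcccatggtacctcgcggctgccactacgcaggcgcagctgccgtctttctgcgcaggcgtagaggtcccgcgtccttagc
Sdha, complex II, chr1:30764433-30764582, plus strand: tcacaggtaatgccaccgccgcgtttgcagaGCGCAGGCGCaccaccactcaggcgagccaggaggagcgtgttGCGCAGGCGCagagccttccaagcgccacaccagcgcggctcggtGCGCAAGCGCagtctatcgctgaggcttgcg
Uqcr10, complex III, chr14:83791885-83792034, minus strand: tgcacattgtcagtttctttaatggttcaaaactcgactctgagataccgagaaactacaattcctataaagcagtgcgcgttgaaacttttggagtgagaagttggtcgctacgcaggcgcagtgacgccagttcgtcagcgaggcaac
Cox4i1, complex IV, chr19:65630263-65630412, plus strand: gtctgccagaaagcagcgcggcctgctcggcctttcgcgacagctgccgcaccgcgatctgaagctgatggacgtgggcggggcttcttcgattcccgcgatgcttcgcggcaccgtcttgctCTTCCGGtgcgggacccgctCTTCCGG
Atp5i (Atp5me in RefSeq), complex V, chr14:1464740-1464889, plus strand: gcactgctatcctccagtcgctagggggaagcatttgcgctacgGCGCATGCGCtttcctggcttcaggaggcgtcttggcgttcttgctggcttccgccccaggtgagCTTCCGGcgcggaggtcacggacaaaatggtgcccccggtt
The Sdha stretch held 3 NRF1-type matches, beginning 89 and 46 bases before the start and at the base next to it. The Atp5i stretch held 1 NRF1-type match, which has the exact palindrome (AT between the GCGC pair), and 1 ETS-type match. The Cox4i1 stretch held 2 ETS-type matches on the opposite strand, and the Ndufb10 and Uqcr10 stretches held none of these letters.

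Over the whole window, 250 bases before to 50 after the start, the NRF1-type letters stood in 15 of the 68 member promoters (22.1%), against 13.8% of the 6255 promoters of tested genes and 5.58% of all 33469. The exact palindrome, a subset of these matches, stood in 4 (5.88%), against 2.27% and 0.852%. The ETS-type letters stood in 19 (27.9%), against 20.6% and 8.75%, and the YY1-type letters in 10 (14.7%), against 4.27% and 1.73%. The receptor-type letters stood in 2 promoters, those of Atp5g3 and Sdhd (2.94%), against 0.176% and 0.433%. Both CCAAT (32.4%, against 38.2% and 37.5%) and the GC box letters GGGCGG (42.6%, against 64.4% and 33.1%) were less frequent in member promoters than in those of tested genes. These shares are descriptions of letters in a window, and no binding was measured. Atp5h, Atp5sl, Cox4i2, Cox6a1, Cox6c, Cox6c-ps1, Ndufa10l1, Ndufa8, Ndufb9, Uqcr11 and Uqcrb are named without a promoter.

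Values are reads divided by the authors' size factor of each library and are called units here. The libraries held 362122 and 161817 reads on MMP13-remodelled matrix, 184061 and 225105 on MMP1-remodelled matrix and 219775 and 347618 on native matrix, so 1 read was worth between 0.735 and 1.68 units. The 12 fibroblast markers took between 2.99% and 3.35% of reads in each library. Lists of leukocyte, epithelial, endothelial and muscle markers did not exceed 0.0127% of a library's reads, and Epcam and Myh7 were at 0 in all of them. The ribosomal precursor entry Rn45s took 0.692% and 0.968% of reads on MMP13-remodelled, 0.661% and 0.936% on MMP1-remodelled and 0.347% and 0.293% on native matrix, and its part in the results was not tested.

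The members held 31981 reads in all. Of the 80 members, 73 reached 5 units in at least 2 libraries and were tested: all 33 of complex I, 4 of complex II and 8 of complex III, with 12 of complex IV and 16 of complex V. Each tested member had between 19 and 2207 reads over the 6 libraries, with a median of 315. The median of their mean levels was 56.7 units, against 13.3 units over all 7284 tested genes, and 68 of the 73 lay above 13.3 units. Reads came from transcript 3′ ends and were not divided by length. Matrices are compared within a gene or within a sum of genes. Differences in level between genes are given as reads and not as numbers of transcripts.

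The 7 members that were not tested are mostly isoforms known from particular tissues. The muscle isoform Cox8b had no read in any library, where a count of 0 allows up to 2.21 and 5.04 units on MMP13-remodelled, 4.38 and 3.60 on MMP1-remodelled and 3.65 and 2.26 on native matrix. Cox6a2, the heart and muscle partner of Cox6a1, had 0 and 6 reads on MMP13-remodelled, 0 and 1 on MMP1-remodelled and 2 and 1 on native matrix. Cox6b2, known from testis, had 1 and 2, 4 and 2, and 2 and 2 reads on MMP13-remodelled, MMP1-remodelled and native matrix. These counts sit at or near the limit of 3 reads that a count of 0 allows, and no fold was drawn from them. Cox8c had 0 and 5 reads on MMP13-remodelled, 3 and 4 on MMP1-remodelled and 0 and 2 on native matrix. Cox4i2, an isoform known from lung, had 4 reads in 1 native library and none in the other 5 libraries. The remaining untested members are Cox6c-ps1, a pseudogene entry with 1 read in all, and Atp5s, with 4 reads in 1 MMP1 library and 1 in 1 native library. Ndufa4l2, known as a hypoxia-induced relative of Ndufa4, was tested with only 5 and 1, 4 and 1, and 5 and 3 reads on the 3 matrices in the same order.

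All members together took 2.16% and 1.99% of reads on MMP13-remodelled, 2.07% and 2.23% on MMP1-remodelled and 2.14% and 2.13% on native matrix. The exact (Clopper-Pearson) 95% binomial intervals were 2.11 to 2.21% and 1.92 to 2.06% for the MMP13 libraries, 2.01 to 2.14% and 2.16 to 2.29% for the MMP1 libraries and 2.08 to 2.20% and 2.08 to 2.18% for the native libraries, and they cover counting error only. The native shares lay inside the range of the other libraries. The summed level was 5581 ± 250.2 units on MMP13-remodelled, 5795 ± 308 on MMP1-remodelled and 5651 ± 86.5 units on native matrix (SD, n = 2 each), which is a ratio to native of 0.988 for MMP13 and 1.03 for MMP1. Shares and scaled sums are relative to the reads of each library, so neither the number of cells nor the RNA per cell can be read from them.

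**Figure D1:**
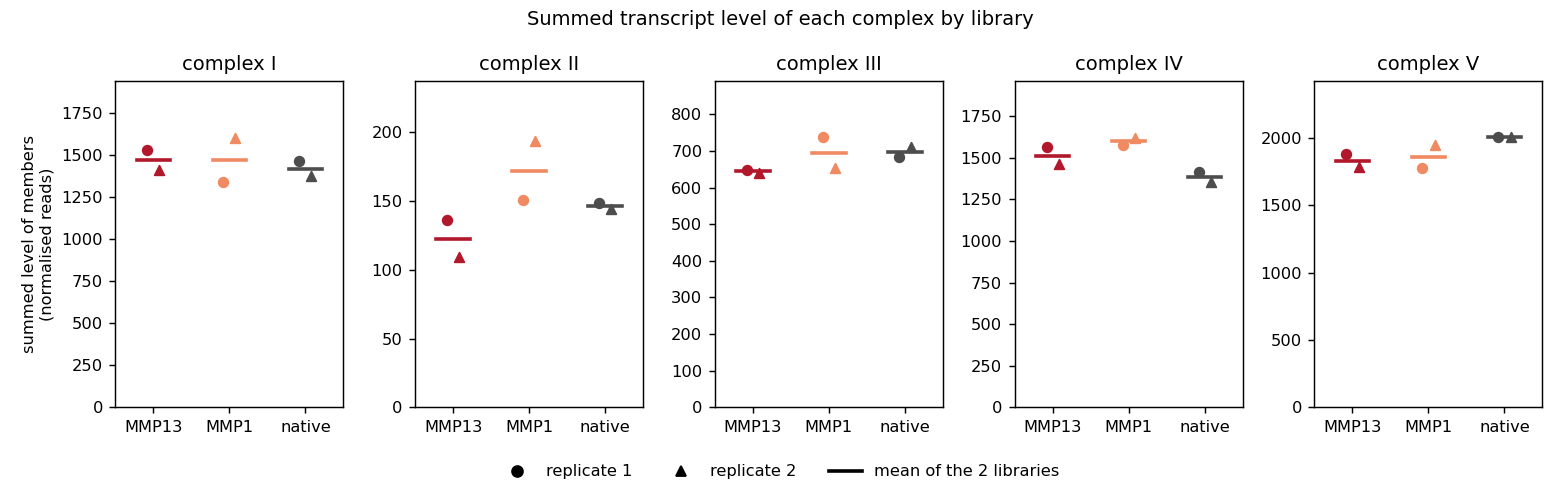
Summed transcript level (normalised reads, linear axes from 0) of the members of each complex by library on MMP13-remodelled, MMP1-remodelled and native matrix, with circles for replicate 1, triangles for replicate 2 and bars for the mean of the 2 libraries. Complex IV sums lie between 1463 and 1620 units on the remodelled matrices and at 1414 and 1355 units on native matrix, while complex V sums lie between 1774 and 1945 units on the remodelled matrices and at 2006 and 2007 units on native matrix.

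On MMP13-remodelled against native matrix no member passed an adjusted p of 0.05 in limma, and none did in edgeR or DESeq2. Over all 7284 tested genes 30 passed, or 0.412%. At an unadjusted p under 0.05 there were 6 members (8.22% of 73, 4 higher and 2 lower) against 8.05% of all tested genes (3.9% higher and 4.15% lower), and edgeR gave 7. The libraries of the 2 groups did not overlap for 31 members (42.5%, 15 above and 16 below native), against 37.5% of all tested genes (18.9% above and 18.6% below). Both shares are near the background. The median log2 fold of the tested members was -0.01, against 0.01 over all tested genes, and individual folds ran between -0.88 for Sdha and 0.96 for Ndufb5.

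On MMP1-remodelled against native matrix no member passed in limma, edgeR or DESeq2 either, with 11 of all tested genes called (0.151%). The smallest adjusted p of any member was 0.0851, for Uqcr10, a small subunit of complex III. At an unadjusted p under 0.05 there were 11 members (15.1%, 8 higher and 3 lower), against 8.24% of all tested genes (3.98% higher and 4.26% lower), and edgeR gave 10. Libraries did not overlap for 29 members (39.7%, 18 above and 11 below native), against 38.4% (19.6% above and 18.8% below). The share at the unadjusted threshold was above the background and the share without overlap near it. Over the alternative settings, counts at the unadjusted threshold ranged between 1 and 12 here and between 2 and 8 for MMP13 against native. Without limma's trend over genes of like level they were 1 and 2, and with DESeq2 they were 8 and 2. Here the count was 7 without the first MMP1 library or without the first native library, and for MMP13 against native it was 2 without the first native library. The median log2 fold was 0.03, against 0.02 over all tested genes. Both comparisons use the same 2 native libraries, so they are not independent of each other.

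On MMP13-remodelled against MMP1-remodelled matrix no member passed in limma, edgeR or DESeq2, with 3 of all tested genes called (0.0412%). There were 6 members at an unadjusted p under 0.05 (8.22%, 2 higher and 4 lower), against 5.22% (2.58% higher and 2.64% lower), and edgeR gave 3. Without limma's trend over genes of like level the count was 0, and with DESeq2 it was 1. This count ranged between 0 and 9 over the alternative settings. It was 0 without the second MMP13 library, 9 without the first, and 3 without the first MMP1 library. Libraries did not overlap for 18 members (24.7%, 7 above and 11 below MMP1), against 31.4% (15.9% above and 15.4% below). The median log2 fold was -0.07, against -0.0027 over all tested genes.

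The precision behind these results differed by level. Median absolute log2 differences between replicates were 0.27 for members on MMP13-remodelled, 0.33 on MMP1-remodelled and 0.26 on native matrix, against 0.52, 0.54 and 0.50 over all tested genes. The 95% interval of the log2 fold lay wholly within 2-fold either way for 42 members in MMP13 against native, 43 in MMP1 against native and 47 in MMP13 against MMP1. These are 57.5%, 58.9% and 64.4% of the tested members, against 18.5%, 18.7% and 21.2% of all tested genes. For these members a change above 2-fold lies outside the interval, whereas for the others the interval includes such a change. In the limma fit each gene's error came from the trend over genes of like level and not from its own libraries, so a gene with scattered replicates gets too small an error.

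**Figure D2:**
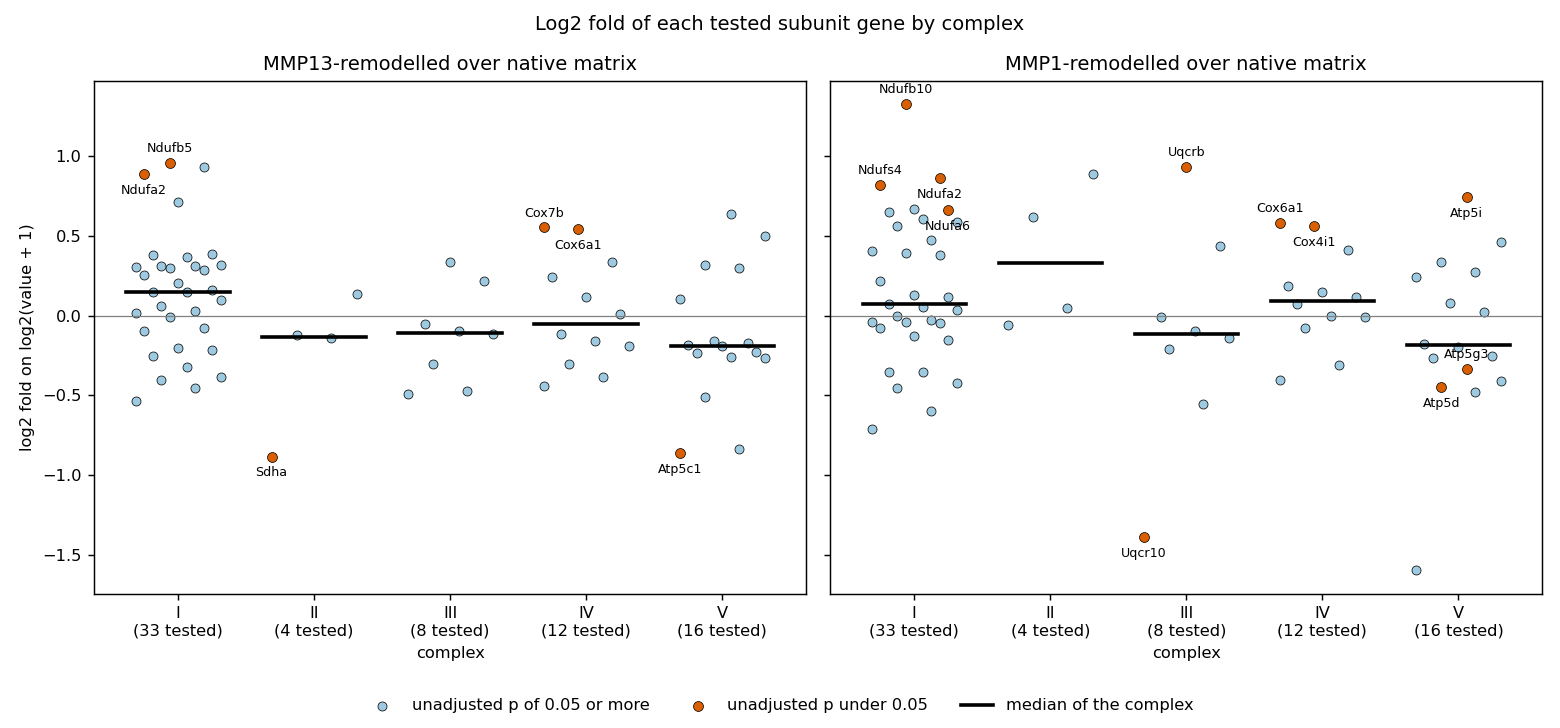
Log2 fold on the log2(value + 1) scale (y axis) of each tested member by complex (x axis), for MMP13-remodelled over native matrix (left) and MMP1-remodelled over native matrix (right), with bars for the median of each complex. Orange points have an unadjusted p under 0.05 and are named; none passed the adjusted threshold, and the medians lie between -0.19 and 0.33.

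Complex I, the NADH dehydrogenase, had summed levels of 1529.7 and 1411 units on MMP13-remodelled, 1339 and 1601 on MMP1-remodelled and 1459.9 and 1373 units on native matrix, and the groups overlapped. The median log2 fold of its 33 members was 0.15 for MMP13 against native, 0.07 for MMP1 against native and -0.01 for MMP13 against MMP1. In MMP13 against native, 7 members lay above native without overlap and 2 below, and the same counts were found in MMP1 against native. These are 27.3% of the 33 members in each, below the 37.5% and 38.4% of all tested genes. At an unadjusted p under 0.05 there were 2 members (6.06%, against 8.05% of all tested genes) in the first comparison and 4 (12.1%, against 8.24%) in the second, all with positive folds.

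The nuclear-encoded core subunits of complex I described here overlapped between MMP13-remodelled and native matrix. Ndufv1, which binds FMN and oxidises NADH, had 58.8 and 35.3 units on MMP13-remodelled, 49.7 and 75.6 on MMP1-remodelled and 52.3 and 68.7 units on native matrix. Ndufs1, the largest iron-sulphur subunit, had 16.9 and 3.36 units on MMP13-remodelled, 10.2 and 14.4 on MMP1-remodelled and 10.9 and 11.3 units on native matrix. The lower MMP13 library of Ndufs1 rests on 2 reads, and its log2 difference between MMP13 replicates, 2.04, was the largest of any member in that group. Ndufv2, another iron-sulphur subunit of the NADH-oxidising module, had 22.1 and 16.8 units on MMP13-remodelled, 30.7 and 18.0 on MMP1-remodelled and 18.2 and 12.8 units on native matrix. The groups overlapped for each of these genes. Of the subunits of the ubiquinone-reducing module, Ndufs3 had 20.6 and 42.0 units on MMP13-remodelled, 26.3 and 42.0 on MMP1-remodelled and 21.9 and 25.7 units on native matrix, so that its MMP1 libraries lay above both native libraries. Ndufs7 had 14.0 and 18.5 units on MMP13-remodelled, 14.6 and 18.0 on MMP1-remodelled and 9.72 and 15.1 units on native matrix, and Ndufs8 had 71.3 and 63.8 units on MMP13-remodelled, 57.0 and 87.6 on MMP1-remodelled and 72.9 and 63.4 units on native matrix. Their log2 folds ran between -0.46 and 0.38 for MMP13 against native and between 0.03 and 0.59 for MMP1 against native, and none had an unadjusted p under 0.05.

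Among the 26 accessory subunits, Ndufb10, of the membrane arm, had 22.8 and 18.5 units on MMP13-remodelled, 17.5 and 42.0 on MMP1-remodelled and 7.29 and 14.3 units on native matrix. Both remodelled groups lay above native, and the MMP1 libraries differed from each other by more than the MMP13 libraries did. Its log2 fold was 1.32 ± 0.51 (SE) for MMP1 against native (adjusted p = 0.347, limma) and 0.93 ± 0.51 for MMP13 against native (adjusted p = 0.65). Leaving out 1 library moved the MMP1 value between 0.72 and 1.93. Ndufs4, an accessory subunit known from inherited complex I deficiency, had 47.1 and 42.0 units on MMP13-remodelled, 46.7 and 49.2 on MMP1-remodelled and 36.5 and 19.6 units on native matrix. Both remodelled groups again lay above native, whose 2 libraries were far apart. The log2 folds of Ndufs4 were 0.71 for MMP13 against native (adjusted p = 0.624) and 0.82 for MMP1 against native (adjusted p = 0.482), and 0.28 and 0.39 without the second native library. Ndufa2, of the NADH-oxidising module, had 41.9 and 28.5 units on MMP13-remodelled, 32.1 and 36.0 on MMP1-remodelled and 12.2 and 27.2 units on native matrix, with log2 folds of 0.89 (adjusted p = 0.553) and 0.86 (adjusted p = 0.576) against native. These were 0.34 and 0.31 without the first native library and 1.44 and 1.41 without the second. Ndufb5, of the membrane arm, had 22.1 and 33.6 units on MMP13-remodelled, 20.4 and 24.0 on MMP1-remodelled and 12.2 and 15.1 units on native matrix, and every library on a remodelled matrix lay above both native libraries.

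Other accessory subunits had positive or negative values without a common direction. Ndufa6 had 61.8 and 42.0 units on MMP13-remodelled, 73.0 and 72.0 on MMP1-remodelled and 49.8 and 41.5 units on native matrix, with a log2 fold of 0.66 for MMP1 against native (adjusted p = 0.55). Ndufa8, the complex I member with the highest mean value, had 124 and 149 units on MMP13-remodelled, 93.5 and 172 on MMP1-remodelled and 179 and 161 units on native matrix, so that both MMP13 libraries lay below native while the MMP1 libraries overlapped with it. Ndufb11 had 96.3 and 78.9 units on MMP13-remodelled, 64.3 and 84.0 on MMP1-remodelled and 98.5 and 104 units on native matrix, and Ndufs5 had 23.5 and 16.8 units on MMP13-remodelled, 13.1 and 19.2 on MMP1-remodelled and 30.4 and 23.4 units on native matrix. The MMP1 libraries of both lay below native. The MMP13 libraries of Ndufb11 also lay below native, and those of Ndufs5 overlapped with it. Ndufa9, a subunit near the ubiquinone site, had 41.2 and 13.4 units on MMP13-remodelled, 33.6 and 63.6 on MMP1-remodelled and 34.0 and 35.5 units on native matrix. It had the smallest unadjusted p of complex I between the remodelled matrices (log2 fold -0.94, adjusted p = 0.823), but the 2 groups overlapped and the value rests on the second MMP13 library, without which it was -0.16. Ndufb2 had 55.2 and 75.6 units on MMP13-remodelled, 29.2 and 57.6 on MMP1-remodelled and 55.9 and 49.8 units on native matrix, with a log2 fold between the remodelled matrices of 0.64 (adjusted p = 0.948), which was 0.16 without the first MMP1 library and 1.12 without the second. Ndufa10 and its paralogue Ndufa10l1 may share reads, and their values, at most 21.6 units in any library, are uncertain.

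**Figure D3:**
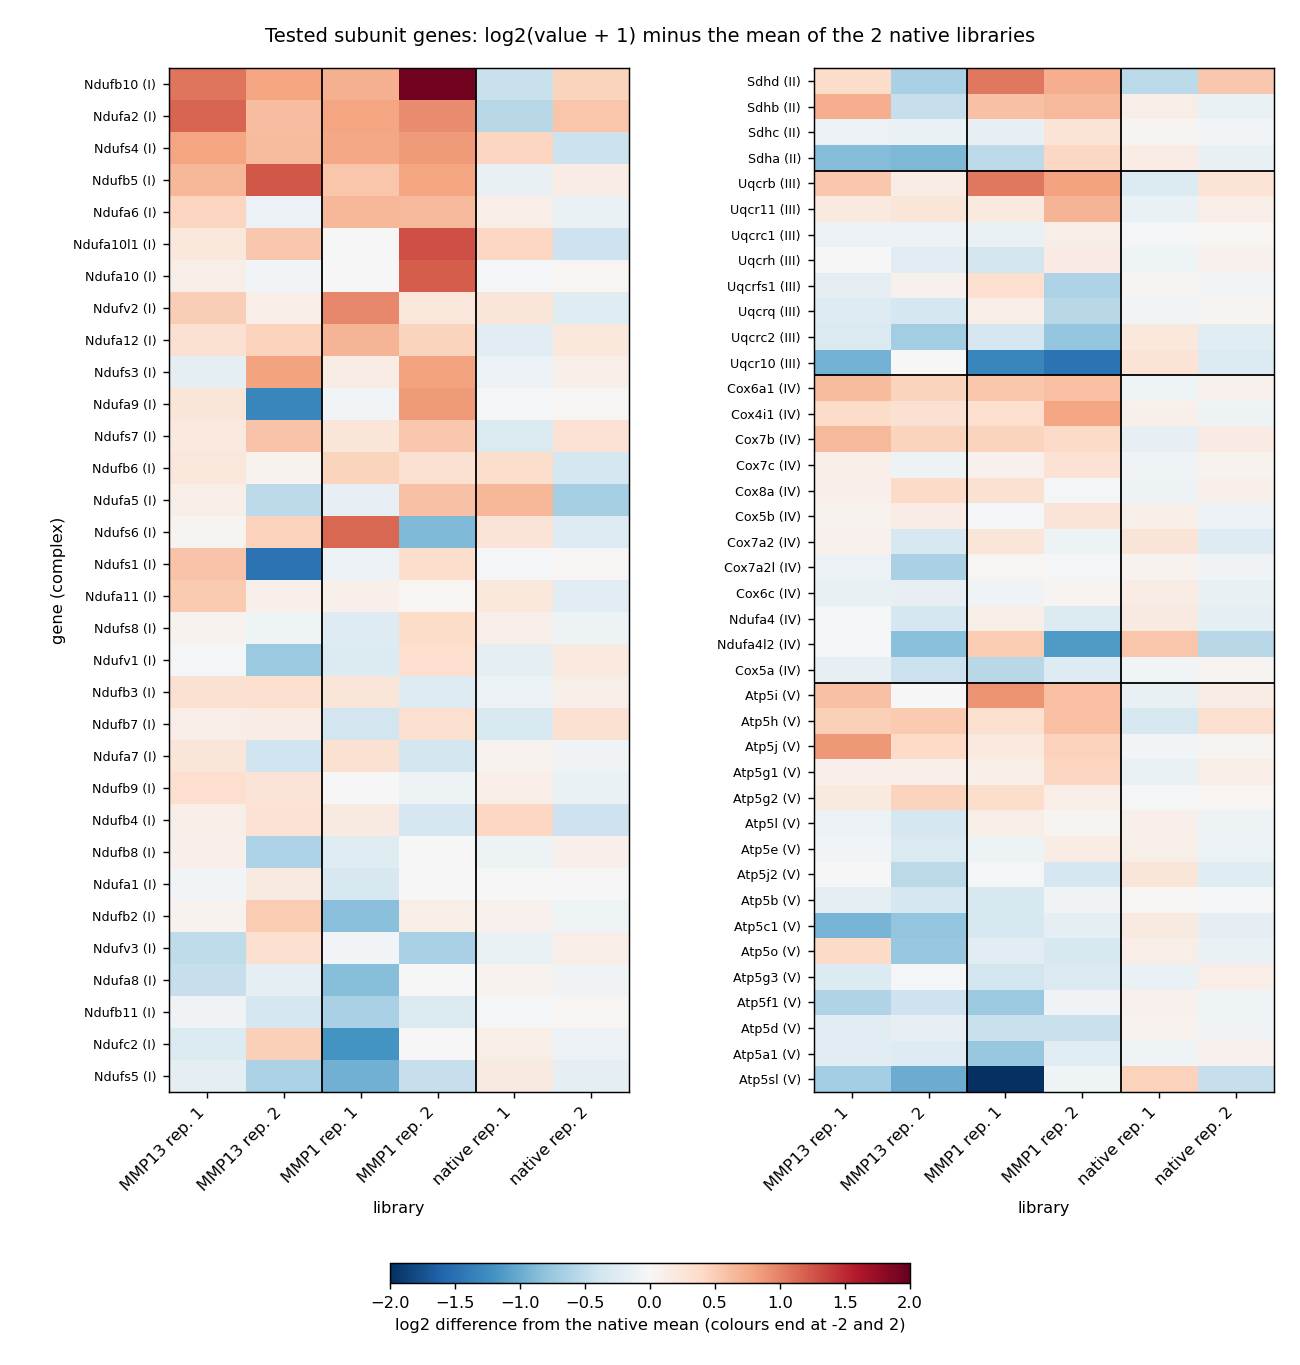
Log2(value + 1) of tested members in each library minus the mean of the 2 native libraries (colour, ending at -2 and 2), with complex I on the left, complexes II to V on the right and black lines between groups and complexes. Rows of like colour across all 4 remodelled libraries, such as Cox6a1 (log2 folds against native of 0.54 and 0.58), stand beside rows whose replicates differ, such as Ndufs1.

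Complex II, the succinate dehydrogenase, had summed levels of 136 and 109 units on MMP13-remodelled, 150.4 and 193 on MMP1-remodelled and 148 and 144 units on native matrix. The MMP13 libraries lay below native and the MMP1 libraries above it, though the nearest MMP1 and native sums were almost equal. As shares of reads these were 0.0560% (exact binomial interval 0.0457 to 0.0679%) and 0.0555% (0.0461 to 0.0663%). The interval of each library on a remodelled matrix overlapped both native intervals. No shift of complex II against native is therefore drawn from the order of these sums. The ratio of means was 0.838 for MMP13 over native (0.746 to 0.930 with 1 library left out), 1.18 for MMP1 over native (1.03 to 1.32) and 0.713 for MMP13 over MMP1 (0.634 to 0.815). No test was made of sums. The log2 folds of all 4 genes were negative for MMP13 against MMP1, with a median of -0.65, against -0.0027 over all tested genes. These 4 folds come from the same libraries, and the groups overlapped for Sdhb and Sdhc. The first MMP1 interval overlapped those of both MMP13 libraries (0.0440 to 0.0590% and 0.0310 to 0.0512%). The second MMP1 interval (0.0609 to 0.0835%) overlapped neither. No shift of complex II between the remodelled matrices is drawn from these values.

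Sdha, the flavoprotein that oxidises succinate, had 20.6 and 20.2 units on MMP13-remodelled, 26.3 and 51.6 on MMP1-remodelled and 42.5 and 34.7 units on native matrix. Both MMP13 libraries lay below all 4 others, and the MMP1 libraries spanned the native ones. Its log2 fold was -0.88 ± 0.40 (SE) for MMP13 against native (adjusted p = 0.515, limma) and -0.83 ± 0.40 for MMP13 against MMP1 (adjusted p = 0.911). Between the remodelled matrices it was -0.35 without the second MMP1 library and -1.30 without the first. Sdhb, the iron-sulphur subunit, had 24.3 and 10.1 units on MMP13-remodelled, 21.9 and 22.8 on MMP1-remodelled and 15.8 and 12.8 units on native matrix. Its MMP1 libraries were close to each other and above native, and its MMP13 libraries lay on either side of both. The membrane anchor Sdhd, which with Sdhc holds the enzyme in the membrane and binds ubiquinone, had 21.3 and 10.1 units on MMP13-remodelled, 35.0 and 27.6 on MMP1-remodelled and 10.9 and 24.1 units on native matrix. Its log2 fold was -1.03 ± 0.49 for MMP13 against MMP1 (adjusted p = 0.896) and 0.89 for MMP1 against native (adjusted p = 0.648). With 1 library left out these lay between -1.54 and -0.52, the outer values being those without an MMP13 library, and between 0.35 and 1.43, those without a native library. Sdhc had 69.9 and 68.8 units on MMP13-remodelled, 67.2 and 91.2 on MMP1-remodelled and 79.0 and 72.4 units on native matrix, with folds against native of -0.12 for MMP13 and 0.05 for MMP1.

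Complex III, the cytochrome bc1 complex, held the members with the smallest p, and they had opposite signs. Its summed levels were 649 and 639.8 units on MMP13-remodelled, 737 and 653 on MMP1-remodelled and 684 and 710.1 units on native matrix. Uqcrc1, Uqcrc2 and Uqcrfs1 did not reach an unadjusted p under 0.05 in any comparison. Uqcrc1 had 72.8 and 72.2 units on MMP13-remodelled, 71.6 and 85.2 on MMP1-remodelled and 76.6 and 80.7 units on native matrix. Uqcrc2 had 27.2 and 20.2 units on MMP13-remodelled, 26.3 and 19.2 on MMP1-remodelled and 38.9 and 28.7 units on native matrix, so that all libraries on remodelled matrix lay below native (log2 folds -0.49 and -0.55, adjusted p = 0.837 and 0.773). The Rieske iron-sulphur protein Uqcrfs1 had 78.0 and 94.0 units on MMP13-remodelled, 112 and 57.6 on MMP1-remodelled and 92.4 and 85.3 units on native matrix, and its MMP1 libraries were the farthest apart.

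Uqcr10, a small subunit, had 30.2 and 58.8 units on MMP13-remodelled, 23.4 and 20.4 on MMP1-remodelled and 71.7 and 48.3 units on native matrix. The MMP1 libraries were the lowest of the 6 and close to each other, and the MMP13 libraries overlapped with native. The log2 fold was -1.39 ± 0.37 (SE) for MMP1 against native (adjusted p = 0.0851 in limma, 0.71 in limma without the trend and 0.062 in edgeR). It lay between -1.67 and -1.11 with 1 library left out. For MMP13 against MMP1 it was 0.92 ± 0.37 (adjusted p = 0.823), and 0.45 without the second MMP13 library. Uqcrb, a small subunit on the matrix side, had 88.2 and 67.2 units on MMP13-remodelled, 127 and 107 on MMP1-remodelled and 49.8 and 74.0 units on native matrix. The MMP1 libraries were here the highest of the 6. The log2 fold was 0.93 ± 0.27 for MMP1 against native (adjusted p = 0.131 in limma and 0.124 in edgeR), between 0.65 and 1.21 with 1 library left out, and 0.34 for MMP13 against native. Transcripts of 2 small subunits of one complex had log2 folds on MMP1-remodelled matrix of opposite sign, and neither passed.

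The other small subunits lay between them. Uqcr11 had 73.5 and 75.6 units on MMP13-remodelled, 73.0 and 103 on MMP1-remodelled and 58.3 and 70.2 units on native matrix, with all libraries on remodelled matrix above native and log2 folds of 0.22 and 0.43 (adjusted p = 0.908 and 0.726). Uqcrq, the complex III member with the highest mean value, had 163 and 153 units on MMP13-remodelled, 215 and 132 on MMP1-remodelled and 188 and 201 units on native matrix. Its MMP13 libraries lay below native, and its MMP1 libraries lay on either side of it. Uqcrh, the hinge protein that bridges cytochrome c1 and cytochrome c, had 115 and 99.1 units on MMP13-remodelled, 89.1 and 128 on MMP1-remodelled and 108 and 121 units on native matrix, and its groups overlapped. Without Uqcrq the ratio of the complex III sums was 0.968 for MMP13 over native, against 0.924 with it.

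**Figure D4:**
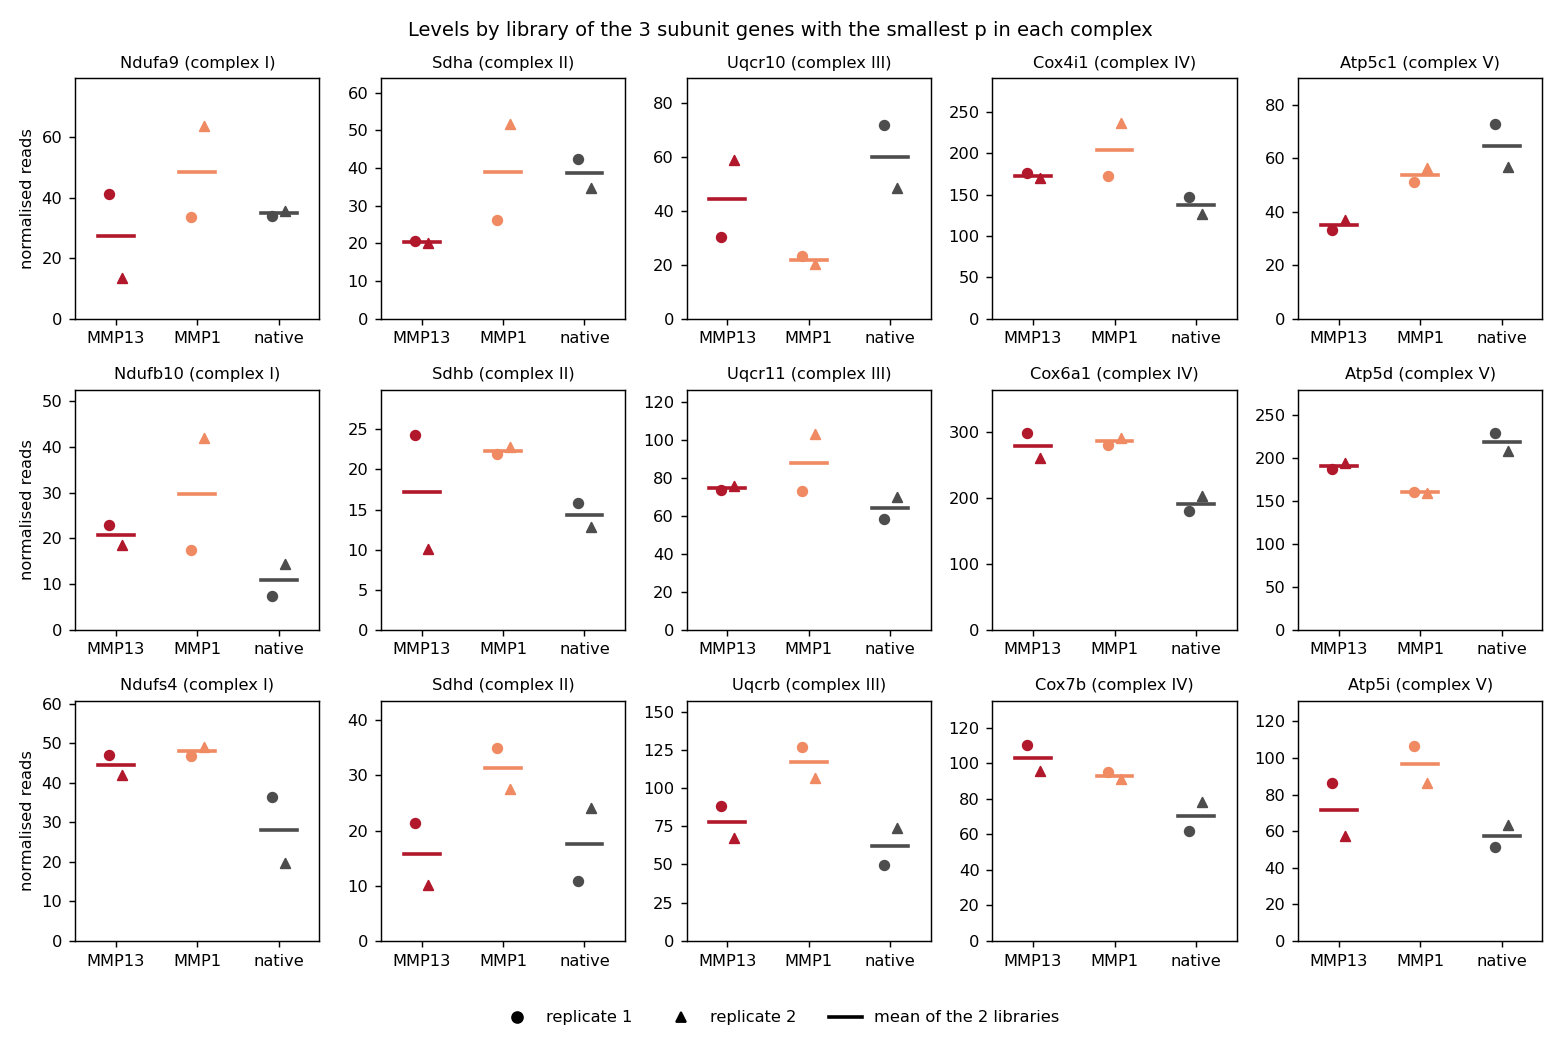
Levels (normalised reads, linear axes from 0) of the 3 members of each complex with the smallest unadjusted p in any comparison, by library on MMP13-remodelled, MMP1-remodelled and native matrix, with circles for replicate 1, triangles for replicate 2 and bars for the mean of 2. Uqcr10 has its lowest values on MMP1-remodelled matrix (23.4 and 20.4 units), Uqcrb its highest there (127 and 107 units), and Cox6a1 lies above native on both remodelled matrices.

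Complex IV, the cytochrome c oxidase, had summed levels of 1563 and 1463 units on MMP13-remodelled, 1576 and 1620.5 on MMP1-remodelled and 1414 and 1355 units on native matrix. Every library on a remodelled matrix lay above both native libraries. The ratio of means was 1.09 for MMP13 over native (1.06 to 1.13 with 1 library left out) and 1.15 for MMP1 over native (1.13 to 1.18). As a share of reads, the second MMP13 library (exact binomial interval 0.503 to 0.575%) overlapped both native intervals (0.499 to 0.560% and 0.493 to 0.541%). The first MMP1 interval (0.552 to 0.622%) overlapped that of the first native library. The first MMP13 and second MMP1 intervals lay above both native ones. The order of these sums is a description, and no test was made of them. Of the summed genes, 4 of the 10 general subunits lay above native without overlap on each remodelled matrix, and 1 lay below. Over all tested genes 18.9% and 19.6% lay above and 18.6% and 18.8% below native in the MMP13 and MMP1 comparisons. Without Cox6a1, the complex IV member with the highest mean value, the ratio was 1.03 for MMP13, whose libraries (1265 and 1202 units) then overlapped with native (1234 and 1152 units), and 1.10 for MMP1, whose libraries stayed above native.

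Cox6a1, the widely expressed form of subunit VIa, had 298 and 260.3 units on MMP13-remodelled, 280.4 and 292 on MMP1-remodelled and 179.9 and 203 units on native matrix. The 4 values on remodelled matrix stood above the native pair without overlap. The log2 fold was 0.54 ± 0.17 (SE) for MMP13 against native (adjusted p = 0.191 in limma and 0.116 in edgeR) and 0.58 ± 0.17 for MMP1 against native (adjusted p = 0.159 in limma and 0.133 in edgeR). Between the remodelled matrices it was -0.04, with a 95% interval from -0.38 to 0.30. Cox4i1, the general isoform of the largest nuclear-encoded subunit, had 176 and 169.6 units on MMP13-remodelled, 172 and 236 on MMP1-remodelled and 147 and 127 units on native matrix. Its log2 fold was 0.56 ± 0.20 for MMP1 against native (adjusted p = 0.288; 0.33 without the second MMP1 library) and 0.34 ± 0.20 for MMP13 against native (adjusted p = 0.707). Cox7b, a small membrane subunit, had 110.3 and 95.7 units on MMP13-remodelled, 94.9 and 91.2 on MMP1-remodelled and 62.0 and 78.5 units on native matrix, with log2 folds of 0.55 for MMP13 (adjusted p = 0.553) and 0.41 for MMP1 (adjusted p = 0.721) against native. These 3 genes had all 4 libraries on remodelled matrix above native, and none passed.

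Cox5a, a subunit that faces the matrix side, had lower values on remodelled matrix. It had 75.0 and 62.1 units on MMP13-remodelled, 57.0 and 70.8 on MMP1-remodelled and 81.4 and 87.5 units on native matrix, with all 4 libraries on remodelled matrix below native and log2 folds of -0.30 and -0.41 (adjusted p = 0.855 and 0.749). Its partner Cox5b had 101 and 107 units on MMP13-remodelled, 94.9 and 115 on MMP1-remodelled and 105 and 89.0 units on native matrix, and its groups overlapped. Cox8a, the general form of subunit VIII, had 195 and 235 units on MMP13-remodelled, 225 and 179 on MMP1-remodelled and 169 and 194 units on native matrix. Cox7a2, the general form of subunit VIIa, had 73.5 and 55.4 units on MMP13-remodelled, 81.8 and 64.8 on MMP1-remodelled and 82.7 and 58.1 units on native matrix, and its relative Cox7a2l, known as a factor of respiratory supercomplex assembly, had 73.5 and 50.4 units on MMP13-remodelled, 81.8 and 78.0 on MMP1-remodelled and 83.9 and 76.2 units on native matrix. The MMP13 libraries of Cox7a2l were lower than all 4 others, with a log2 fold against native of -0.39 (adjusted p = 0.781). Ndufa4, named for complex I but now regarded as a subunit of complex IV, had 117 and 92.4 units on MMP13-remodelled, 129 and 98.4 on MMP1-remodelled and 135 and 104 units on native matrix and overlapped between groups. Cox6c and Cox7c had log2 folds between -0.16 and 0.18 against native, and Cox6c may share reads with its pseudogene entry.

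Complex V, the ATP synthase, had summed levels of 1880.5 and 1782 units on MMP13-remodelled, 1774 and 1945 on MMP1-remodelled and 2006 and 2007 units on native matrix. Both remodelled groups lay below native, with ratios of 0.913 for MMP13 (0.888 to 0.937 with 1 library left out) and 0.927 for MMP1 (0.884 to 0.969). As a share of reads, the second MMP1 library (exact binomial interval 0.685 to 0.755%) overlapped both native intervals (0.715 to 0.788% and 0.737 to 0.795%). The first MMP13 interval (0.679 to 0.734%) overlapped that of the first native library. The second MMP13 and first MMP1 intervals lay below both native ones. These sums were not tested. Single genes outside the F1 part lay below or above native, and the F1 part, the catalytic head with its central shaft, had lower sums on both remodelled matrices. The F1 sums were 833 and 783 units on MMP13-remodelled, 761 and 882 on MMP1-remodelled and 1000.4 and 936 units on native matrix. Their ratios to native were 0.834 (0.808 to 0.863) and 0.848 (0.786 to 0.911). The F1 interval of the second MMP1 library (0.303 to 0.351%) overlapped both native F1 intervals (0.349 to 0.401% and 0.337 to 0.377%). The other F1 intervals on remodelled matrix lay below both. The 7 genes of the peripheral stalk and membrane part summed to 501 and 385 units on MMP13-remodelled, 473 and 481 on MMP1-remodelled and 455 and 432 units on native matrix. The c-ring genes summed to 542 and 611 units on MMP13-remodelled, 535 and 574 on MMP1-remodelled and 538 and 634 units on native matrix. Neither sum was lower on a remodelled matrix without overlap. The stalk and membrane sums on MMP1-remodelled matrix lay above native (ratio 1.08), though the binomial intervals of these libraries overlapped. On MMP13-remodelled matrix the stalk and membrane sums overlapped with native.

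Of the 5 F1 genes, 4 had both libraries below both native libraries in MMP13 against native, and 4 in MMP1 against native. Over all tested genes 18.6% and 18.8% lay below native without overlap in the 2 comparisons. Atp5a1, the alpha subunit, had 80.9 and 78.9 units on MMP13-remodelled, 55.5 and 81.6 on MMP1-remodelled and 88.7 and 100.4 units on native matrix. Atp5b, the beta subunit with the catalytic sites and the member with the highest mean value of all, had 377 and 341 units on MMP13-remodelled, 343 and 407 on MMP1-remodelled and 434 and 423 units on native matrix. Their log2 folds for MMP13 against native were -0.24 and -0.26 (adjusted p = 0.897 and 0.682), and for MMP1 against native -0.48 and -0.20 (adjusted p = 0.659 and 0.764). Atp5c1, the gamma subunit that forms the rotating shaft, had 33.1 and 36.9 units on MMP13-remodelled, 51.1 and 56.4 on MMP1-remodelled and 72.9 and 56.6 units on native matrix. The MMP13 libraries were the lowest, the MMP1 libraries came next and the native libraries were highest, the nearest MMP1 and native values being almost equal. Its log2 fold was -0.86 ± 0.33 (SE) for MMP13 against native (adjusted p = 0.362 in limma and 0.251 in edgeR) and -0.25 ± 0.33 for MMP1 against native (adjusted p = 0.889). Atp5d, the delta subunit of the central stalk, had 188 and 195 units on MMP13-remodelled, 161 and 159.6 on MMP1-remodelled and 229.7 and 208 units on native matrix, with a log2 fold of -0.45 ± 0.19 for MMP1 against native (adjusted p = 0.462). Its order differed, the MMP1 libraries being lowest. The epsilon subunit gene Atp5e had 155 and 131 units on MMP13-remodelled, 150.4 and 178 on MMP1-remodelled and 175 and 148 units on native matrix and overlapped between groups.

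The peripheral stalk and membrane genes had no common sign. Atp5i, the small membrane subunit e, had 86.0 and 57.1 units on MMP13-remodelled, 107 and 86.4 on MMP1-remodelled and 51.1 and 63.4 units on native matrix. The MMP1 libraries were the highest, and the log2 fold was 0.74 ± 0.28 for MMP1 against native (adjusted p = 0.341). Atp5j, coupling factor 6 of the stalk, had 75.0 and 53.7 units on MMP13-remodelled, 46.7 and 56.4 on MMP1-remodelled and 38.9 and 42.3 units on native matrix and lay above native on both remodelled matrices (log2 folds 0.63 and 0.33, adjusted p = 0.621 and 0.82). Atp5f1, subunit b of the stalk, had 52.9 and 60.5 units on MMP13-remodelled, 48.2 and 76.8 on MMP1-remodelled and 86.3 and 76.2 units on native matrix, with its MMP13 libraries below native (log2 fold -0.51, adjusted p = 0.68). Atp5h, Atp5j2, Atp5l and Atp5o had log2 folds between -0.27 and 0.50 against native on either remodelled matrix.

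The c subunit that lines the rotor ring is encoded by 3 genes whose mature proteins are the same. Atp5g1 had 154 and 154 units on MMP13-remodelled, 156 and 193 on MMP1-remodelled and 131 and 157 units on native matrix. Atp5g2 had 86.0 and 102 units on MMP13-remodelled, 96.4 and 82.8 on MMP1-remodelled and 72.9 and 77.7 units on native matrix, with all 4 libraries on remodelled matrix above native. Atp5g3 had 302 and 354 units on MMP13-remodelled, 282 and 298 on MMP1-remodelled and 334 and 399 units on native matrix, with its MMP1 libraries below native and its MMP13 libraries overlapping. The log2 folds against native were 0.10, 0.31 and -0.16 for Atp5g1, Atp5g2 and Atp5g3 with MMP13, and 0.27, 0.24 and -0.33 with MMP1. Of these, Atp5g3 with MMP1 had an unadjusted p under 0.05 (adjusted p = 0.545), and its fold was -0.21 without the second native library. Atp5sl, known as a complex I assembly factor and not a subunit of the synthase, met the symbol rule and had 4.41 and 3.36 units on MMP13-remodelled, 0 and 7.20 on MMP1-remodelled and 10.9 and 5.28 units on native matrix, which is too few reads to describe further.

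Other genes of the pathway gave no call in any of the 3 comparisons. Assembly factors were tested for complex I (8 of 13 in the table), complex II (1 of 1), complex III (4 of 5), complex IV (15 of 17) and complex V with its regulators (5 of 5), and none passed. Median log2 folds for MMP13 and MMP1 against native were 0.22 and -0.01 for complex I assembly, 0.74 and 0.53 for complex III assembly and 0.38 and 0.24 for complex IV assembly, against 0.01 and 0.02 over all tested genes. The complex III assembly list rests on 4 genes at low levels. Coa5, a complex IV assembly factor, had 8.82 and 3.36 units on MMP13-remodelled, 14.6 and 16.8 on MMP1-remodelled and 30.4 and 18.1 units on native matrix, with a log2 fold for MMP13 against native of -1.90 (adjusted p = 0.142). Its value in the second MMP13 library lies below the 5.04 units that a count of 0 allows there, so the size of this fold is uncertain. Atpif1, the inhibitor of ATP synthase hydrolysis, had 137 and 116 units on MMP13-remodelled, 145 and 131 on MMP1-remodelled and 59.6 and 125 units on native matrix. All but 1 of its libraries lay between 116 and 145 units, and the first native library stood apart at 59.6 units.

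Neither Cycs, the gene of the electron carrier cytochrome c, nor Cyc1, the gene of cytochrome c1, passed. Cytochrome c1 is a complex III subunit, but its symbol lies outside the rule, so Cyc1 is not in the complex III counts and sums. Cyc1 had 114 and 158 units on MMP13-remodelled, 126 and 99.6 on MMP1-remodelled and 160.5 and 125 units on native matrix. Of 10 tested regulators of mitochondrial biogenesis none passed. Ppard, a nuclear receptor, had 29.4 and 18.5 units on MMP13-remodelled, 17.5 and 33.6 on MMP1-remodelled and 12.2 and 6.04 units on native matrix, with log2 folds of 1.34 and 1.40 against native (adjusted p = 0.367 and 0.318). Tfam, the mitochondrial transcription factor, had 19.9 and 40.3 units on MMP13-remodelled, 7.30 and 13.2 on MMP1-remodelled and 17.0 and 7.55 units on native matrix. Its MMP13 libraries were above the native ones, and its MMP1 libraries overlapped with native. None of 15 tested genes of the tricarboxylic acid cycle or of 22 tested mitochondrial membrane proteins passed, with median log2 folds against native of -0.08 and 0.05 and of 0.06 and 0.07 for MMP13 and MMP1. Of 39 symbols searched for the subunits encoded by mitochondrial DNA, 0 were among the deposited genes, so these subunits were not analysed here.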

How the data were processed

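Adherent Rat-1 cells were lysed on the matrix and messenger RNA was sequenced from 3′ ends, with a molecular identifier of 8 nucleotides on read 2, per the labels' protocols. The submitters' processing notes name TopHat, bcl2fastq and DESeq without versions, and the rat build rn5. How genes were counted, with which annotation, with or without strand and with or without collapsing of identifiers, is not given in the sources used here, so overlapping genes and near copies cannot be told apart by strand or sequence. Each deposited value is a signal, namely a gene's count after the authors scaled its library by a single size factor, as read from the values. In each library 100% of values were whole multiples of 1 read within 0.01 reads, so reads were recovered, between 161817 and 362122 per library. A count of 0 allows up to 3 reads, and if identifiers were not collapsed such limits cover counting error only.

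Groups and replicate numbers came from the sample titles. A gene was tested if 2 or more libraries reached 5 units. The test was limma 3.58.1 (R 4.3.3) on log2(value + 1), with trended eBayes (1 coefficient per group, all 6 libraries, no replicate block, 3 residual degrees of freedom), and p-values were adjusted by Benjamini-Hochberg over 7284 genes. A call is an adjusted p under 0.05. Low genes change by more than folds on this scale show. The estimate of the prior degrees of freedom was infinite. Recovered reads were tested as alternatives with edgeR 4.0.16 (quasi-likelihood test, 4574 genes, 69 members), which called 32, 10 and 2 genes in MMP13 against native, MMP1 against native and MMP13 against MMP1, and with DESeq2 1.42.0 (Wald test), which called 26, 1 and 1. DESeq2 gave an adjusted p to 35 members in the first comparison and to 79 in each of the others. The limma script was tested on simulated data. Replicates of each group differed by more than counting noise (chi-square per degree of freedom over members of 2.13 for MMP13, 2.72 for MMP1 and 1.80 for native). Over all genes these values were 2.28, 2.10 and 2.53, so members exceeded all genes on MMP1-remodelled matrix only.

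Library values are given for called members, the 3 of each complex with the smallest unadjusted p, the one with the highest mean, isoform families and core subunits, and up to 2 genes of each further list. Ndufa2, Ndufa6, Ndufb2, Ndufb5, Ndufb11, Ndufs5, Cox5a, Cox5b, Uqcrh, Atp5f1, Atp5j and Atp5sl are given beyond this rule and were chosen after their values were seen. The values of 1 complex I member are not reported here, though it enters the counts and sums. The members, lists, subunit roles and motifs were chosen with earlier results of these data known. Symbols were matched to RefSeq (GRCr8) for all 80 members. That assembly differs from rn5, so its coordinates belong to the printed promoters alone.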

Additional observations from a re-analysis of the deposited data

How the results depend on the processing

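No member was called under any of 17 alternatives in any comparison: another filter, pseudocount or scaling, no trend, only the groups compared, a replicate block, edgeR, DESeq2, identical entries once, and each library left out. Over all genes the calls were 30, 11 and 3 for MMP13 against native, MMP1 against native and MMP13 against MMP1. They numbered 0 in each without the trend, 18 in the first with TMM factors or with only the 2 groups compared, 13 in the first with no filter beyond 1 library above 0, 1 in the second with DESeq2, and 1 in the third with DESeq2 or only the 2 groups compared. With 1 library left out they ranged over 6 to 35, 3 to 17 and 1 to 27. The 23 member folds with an unadjusted p under 0.05 kept their sign in all 391 refits, and 102 of the 196 other folds changed sign in at least 1. This outcome was largely fixed in advance, so nothing is drawn from it. Several alternatives leave a fold as it is, and leaving out a library cannot reverse a fold whose groups do not overlap. Among the 23, only Ndufa9 and Ndufb2 between the remodelled matrices had overlapping groups. With all libraries, median log2 folds lay between -0.03 and 0.03 for MMP13 against native, 0.01 and 0.06 for MMP1 against native, and -0.09 and -0.04 for MMP13 against MMP1. With 1 library left out they lay between -0.06 and 0.08, -0.04 and 0.13, and -0.14 and 0.02, so no direction rests on them. Without Atp5b, the share of reads in members was 2.02% and 1.86% on MMP13-remodelled, 1.95% and 2.07% on MMP1-remodelled and 1.98% and 1.97% on native matrix, by construction lower. Ratios of complex sums whose groups did not overlap kept their side of 1 with TMM factors and without the member with the highest mean, alternatives added after seeing the data, though complex IV on MMP13-remodelled and native matrix then overlapped without Cox6a1.

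Replicate numbers did not pair the libraries: same-numbered libraries had correlated deviations of -0.072 (MMP13 and native), 0.0059 (MMP1 and native) and -0.045 (MMP13 and MMP1). With the replicate block 0 members were called in each comparison, the smallest member adjusted p was 0.121, and the genes called numbered 21, 11 and 2. Reads limit what could be seen: tested members held between 19 and 2207 reads.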
